A study of Homo sapiens with 4 samples.

Results

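The genes of the cereblon, Ikaros and IRF4 circuit were followed in myeloma cells exposed to OSSL_325096, which the labels give by code alone. The circuit was taken as 8 genes, the rows of the table of 57773 genes named CRBN, DDB1, CUL4A, IKZF1, IKZF3, IRF4, PRDM1 and POU2AF1. Each name matched a single row. KMS12PE and KMS11, established human lines of multiple myeloma, a cancer of antibody-secreting plasma cells, were each given OSSL_325096 at 1 µM or the solvent DMSO. RNA sequencing gave 4 libraries, 2 of each treatment, and a single library for each line under each treatment. How long the cells were treated is not given in the labels. The labels name no genetic change, and each line stands for the tumour it was grown from.

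The values were the authors' comparison of the treatments over both lines, and no value of a single library was used. Each gene has a fold change on the log2 scale in the authors' deposited table, with its p-value. It also has an RPKM, reads scaled by transcript length and library size, averaged over the libraries of whichever treatment was higher. A negative log2 fold change means a lower level with OSSL_325096, going by the title of the table, since no column states the order. All 8 genes reached the minimum of 1 RPKM used below, which 11324 genes passed. The standard error of each fold change was implied from its p-value, taking the fold change on the log2 scale over the normal quantile of p. This holds if their test was a two-sided test on the normal distribution.

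In these lines, 7 of 7 plasma cell marker genes were found in the authors' deposited table, at 6.26 to 386 RPKM. Their log2 fold changes had a median of -0.08, with 5 of 7 below 0. CD38 (-0.73) and TNFRSF17, the gene of the receptor BCMA (-0.66), were at least 1.5-fold lower in the authors' deposited table. SDC1, the gene of CD138 (0.60), was at least 1.5-fold higher there. Over all genes of at least 1 RPKM the share was 4.95% in each direction. The part of these marker values in those of the circuit was not tested. Of the mature B cell markers, MS4A1 was listed at 0, PAX5 had 0.00498 RPKM and CR2, the highest of the 5, 1.82 RPKM. The highest T cell marker, CD8A, had 1.02 RPKM and CD3D was listed at 0; the 4 myeloid markers reached 0.0913 RPKM and the 4 stromal markers 0.692 RPKM in the authors' deposited table. A depth of the libraries was estimated from the lowest values, under an assumption. Many low genes shared a fold change and p-value. For each of the 4 most frequent such pairs, the most common value of RPKM times gene span was taken as its step. Of the 2836 genes with these pairs, 248 lay at a step. Of the 4 pairs, 2 were higher with the compound and 2 with DMSO. If each step is 1 read in 1 library, the reads behind the scaling were about 13400000 and 10900000 with OSSL_325096. With DMSO they were about 11000000 and 12300000.

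Cereblon, the product of CRBN, is a substrate receptor. It sits on the adaptor DDB1, which links it to the scaffold CUL4A of a ubiquitin ligase. Thalidomide, lenalidomide and pomalidomide bind cereblon and direct the ligase to the zinc finger transcription factors Ikaros (IKZF1) and Aiolos (IKZF3), which are then degraded. In myeloma cells the loss of these factors is followed by lower IRF4, a transcription factor on which the cells depend. PRDM1 encodes Blimp-1, the repressor that establishes the plasma cell state, and POU2AF1 encodes OCA-B, a coactivator of the octamer-binding factors. The degradation acts on proteins, which were not measured here.

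The promoters of the genes at both ends of the range are shown, since a fold change of mRNA bears first on transcription and mRNA decay. The RefSeq promoter table (GRCh38.p14) held 6 of the 8 genes and no entry for IKZF3 or POU2AF1. The sequences cover 250 bases before to 50 after the start site and were placed by exact match on GRCh37, the build of the authors' hg19 coordinates, each at the start of the gene's canonical transcript. That start lies 19 bases after the gene's start in the authors' deposited table for CRBN, 13 for IRF4, 1375 for CUL4A and 9491 for DDB1. CRBN (chr3:3221326-3221625, minus strand) and IRF4 (chr6:391502-391801, plus strand) are the genes with the lowest fold changes of the circuit, and DDB1 (chr11:61100528-61100827, minus strand) and CUL4A (chr13:113863677-113863976, plus strand) those with values above 0. Capitals mark the GC box GGGCGG, the element bound by SP1, and the TATA box TATAAA, on either strand.
CRBN: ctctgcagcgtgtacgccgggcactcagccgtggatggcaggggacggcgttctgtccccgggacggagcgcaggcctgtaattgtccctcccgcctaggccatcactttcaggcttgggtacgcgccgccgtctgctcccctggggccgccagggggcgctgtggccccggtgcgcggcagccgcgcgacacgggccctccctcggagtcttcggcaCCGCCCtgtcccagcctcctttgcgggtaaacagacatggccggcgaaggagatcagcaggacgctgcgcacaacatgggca
IRF4: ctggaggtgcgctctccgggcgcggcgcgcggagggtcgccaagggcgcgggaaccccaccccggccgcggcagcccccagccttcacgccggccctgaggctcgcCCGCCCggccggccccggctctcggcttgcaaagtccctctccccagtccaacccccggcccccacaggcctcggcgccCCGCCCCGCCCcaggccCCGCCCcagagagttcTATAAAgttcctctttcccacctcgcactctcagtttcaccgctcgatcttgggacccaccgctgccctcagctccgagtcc
DDB1: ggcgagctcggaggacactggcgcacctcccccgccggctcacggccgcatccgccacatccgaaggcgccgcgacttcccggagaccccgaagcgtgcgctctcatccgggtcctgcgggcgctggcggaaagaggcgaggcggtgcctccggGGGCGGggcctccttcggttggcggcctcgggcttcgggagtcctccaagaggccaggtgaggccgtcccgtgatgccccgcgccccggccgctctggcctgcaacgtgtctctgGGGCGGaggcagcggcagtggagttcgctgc
CUL4A: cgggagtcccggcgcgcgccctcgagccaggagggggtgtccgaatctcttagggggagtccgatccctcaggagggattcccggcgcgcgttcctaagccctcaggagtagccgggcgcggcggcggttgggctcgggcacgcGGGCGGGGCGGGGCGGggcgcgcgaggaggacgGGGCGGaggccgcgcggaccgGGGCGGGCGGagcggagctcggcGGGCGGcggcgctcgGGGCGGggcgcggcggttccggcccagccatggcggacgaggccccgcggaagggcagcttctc

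These 4 promoters were rich in G and C, with 70.0% in CRBN, 74.0% in IRF4, 74.3% in DDB1 and 79.7% in CUL4A, against a median of 58.7% over the 35116 promoters of the table. The GC box was found once in CRBN, 4 times in IRF4, 2 times in DDB1 and 8 times in CUL4A, some of them overlapping, and 45% of all promoters hold it. TATAAA began 32 bases before the start site in IRF4 and was in none of the other 5 promoters of the circuit; 11.5% of all promoters hold it. The Ikaros core TGGGAA was found in IRF4 and IKZF1 and is in 24% of all promoters. The IRF element, a pair of GAAA with 2 bases between (3.57% of all promoters), the octamer ATGCAAAT (1.77%), the E-box CACGTG (7.26%), CCAAT (34.6%) and the heat shock element, GAA, TTC and GAA each 2 bases apart (0.49%), were in none of the 6. CCGGAA, the core bound by ETS factors, was in CUL4A and in 17.2% of all promoters. Both strands were searched, and these are matches of letters in short windows and not sites shown to be bound.

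As a group the circuit leaned to lower values with OSSL_325096, with the lowest at CRBN and IRF4, while DDB1 and POU2AF1 were near 0. The 8 genes were chosen with earlier results of these data known, so the group was not tested and the shares are descriptions. Of the 8 log2 fold changes in the authors' deposited table, 6 were below 0, against 49% of the 11324 genes, and their median was -0.25, against 0.01 over all genes. CRBN and IRF4 were at least 1.5-fold lower, 2 of 8 genes where 4.95% of all genes were, and 0 of 8 were at least 1.5-fold higher (4.95% of all genes). At a log2 fold change of -0.32 or lower IKZF3 and PRDM1 joined them, 4 of 8 genes against 15.2%, and 0 of 8 were at least 2-fold lower (1.09% of all genes). With a minimum of 5 RPKM, which CRBN does not reach, 1 of 7 was at least 1.5-fold lower and the median was -0.14. With the trend of GC content, length and expression removed it was 1 of 8, IRF4, while CRBN and IKZF3 were both at -0.43. The share of all genes was not computed under either setting, and the 4.95% above does not apply to them. A lower level per cell and a lower share of cells with the transcript cannot be told apart in bulk RNA. By the Benjamini-Hochberg adjustment over the 11324 genes, 0 of 8 were under 0.05 (0% of all genes), and the adjusted p was 1.00 for each of them, as was the deposited false discovery rate; unadjusted, 0 of 8 were under 0.05 (0.0442% of all genes). The smallest unadjusted p of the circuit in the authors' deposited table was 0.515, for IRF4, and the largest 0.995, for POU2AF1.

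**Figure D1:**
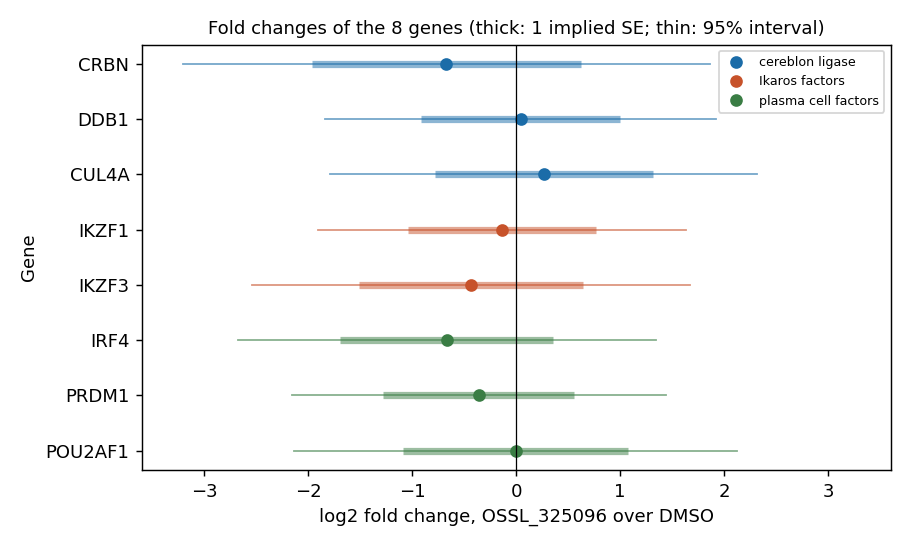
Fold change on the log2 scale, OSSL_325096 over DMSO (horizontal axis), for the 8 genes (vertical axis), coloured by role. Points are the authors' deposited values, thick bars 1 implied SE and thin bars the 95% interval; all intervals span 0, and CRBN (-0.67) and IRF4 (-0.67) lie farthest to the left.

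If a step is 1 read, the implied standard errors were far larger than counting error. They ran from 0.90 for IKZF1 to 1.29 for CRBN, around the median of 1.10 over all genes. Over all genes the log2 fold changes had quartiles of -0.21 and 0.22, so the implied errors exceeded the scatter of values. By the deposited test 0.0442% of genes had an unadjusted p under 0.05. From the read value above and the exonic length of the canonical transcript, CRBN rested on about 121 reads in the 2 libraries of the higher group, and on about 445 with the exons of all annotated transcripts. IRF4 rested on 21449 to 24077 reads by the same lengths. The counting error of the log2 fold change was then at most 0.21 for CRBN and 0.02 for IRF4, and the implied standard errors were 6.11 and 64.7 times as large. Each treatment's libraries came from different lines, and spread between lines and spread between cultures cannot be told apart. By the normal quantile, a gene with the error of IRF4 needed a 4.03-fold difference for an unadjusted p of 0.05. One with that of CRBN needed a 5.79-fold difference.

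Within the ligase, the receptor and its partners had different values. CRBN (chromosome 3, 3190676 to 3221394, hg19, minus strand; 11 exons in the canonical transcript) stood in the authors' deposited table at 1.59-fold lower, which is -0.67 on the log2 scale, and its implied SE was 1.29 with a 95% interval from -3.21 to 1.86 (unadjusted p = 0.603). Of the 11324 genes, 3.41% had a lower fold change. DDB1 (chromosome 11, 61066923 to 61110068, minus strand; 27 exons) had 0.04 in the authors' deposited table, its implied SE being 0.96, and an interval from -1.84 to 1.92. CUL4A (chromosome 13, 113862552 to 113919399, plus strand; 20 exons) was 1.20-fold higher there, with a log2 fold change of 0.26, an implied SE of 1.05 and an interval from -1.79 to 2.32. The intervals of the 3 genes overlap, and the differences between them were not tested.

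By RPKM the receptor was also the scarcest of the 8 transcripts. CRBN had 2.38 RPKM in the authors' deposited table, more than 19.3% of the 11324 genes, while DDB1 had 18.5 RPKM and CUL4A 33.3 RPKM, 7.78 and 14.0 times as much per length. Since each value is the mean of whichever treatment was higher, that of CRBN is for DMSO and those of its partners for OSSL_325096. The length behind each RPKM is not named. The exons of CRBN come to 2187 bases in the canonical transcript and 8052 over all transcripts, those of CUL4A to 5821 and 7813. Ratios and ranks of level may move with the length used. DDB1 serves many receptors, and 20 others were in the authors' deposited table. By RPKM, CRBN stood 19 of 21 among them, above DCAF17 (2.24 RPKM) and ERCC8 (1.45 RPKM) and next below DCAF10 (3.28 RPKM). By fold change it was the second lowest, after DDB2, the receptor that recognises ultraviolet damage, at -0.89 in the authors' deposited table. DTL, the receptor that removes the licensing factor CDT1 in S phase, was at -0.63 there, PHIP at -0.45 and AMBRA1, which directs cyclin D to degradation, at 0.36. The other receptors had a median of 0.01, with 10 of 20 below 0. Of the 20, 2 were at least 1.5-fold lower, DDB2 and DTL, where 4.95% of all genes were.

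The rest of the CUL4 machinery lay close to 0. A further 20 genes covered its parts, CAND1, the ubiquitin-conjugating enzymes UBE2G1 and UBE2D3, and the genes that attach or remove NEDD8, the peptide that switches cullins on. Of these, 11 were below 0. The other 9 were above, and the median was -0.01. Of the 20, 0 were 1.5-fold from 1 in either direction, where 4.95% of all genes were in each. CUL4B, the close relative of CUL4A, was at -0.50 in the authors' deposited table (7.16 RPKM), the lowest of the list. DCUN1D1, which helps NEDD8 onto cullins, was at -0.36, DDA1, a small DDB1 partner, at 0.32 and the signalosome subunit gene GPS1 at 0.25 in the authors' deposited table. CUL4A and CUL4B thus lay on opposite sides of 0, each within 1 implied SE of it.

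**Figure D2:**
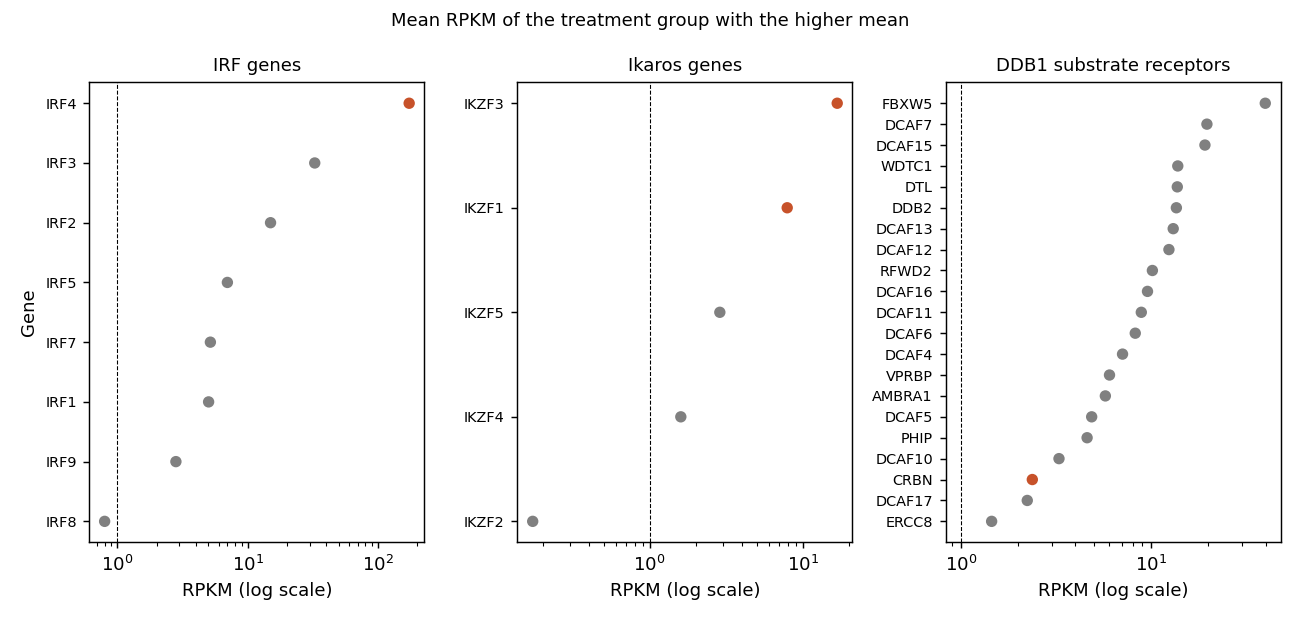
Mean RPKM of the treatment with the higher mean (horizontal axes, log scale) for the IRF genes, the Ikaros genes and the substrate receptors of DDB1, ordered by level; orange points are genes of the circuit and the dashed line is 1 RPKM. IRF4 (174 RPKM) and IKZF3 (16.8 RPKM) head their families, and CRBN (2.38 RPKM) is near the bottom of the receptors.

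Of the Ikaros factors, IKZF3 had the lower value. IKZF3 (chromosome 17, 37921198 to 38020441, minus strand; 8 exons) stood in the authors' deposited table at 1.35-fold lower, with a log2 fold change of -0.44, an implied SE of 1.08 and an interval from -2.55 to 1.67 (unadjusted p = 0.686). IKZF1 (chromosome 7, 50343720 to 50472799, plus strand; 8 exons) was 1.10-fold lower there, at -0.14 with an implied SE of 0.90 and an interval from -1.91 to 1.63. Lower fold changes were found for 9.11% of genes in the case of IKZF3 and for 32.2% in the case of IKZF1. The difference between these genes is well inside either error and was not tested. IKZF3 was also the more abundant, with 16.8 RPKM against 7.93 RPKM for IKZF1 in the authors' deposited table, a ratio of 2.12. IKZF5 followed with 2.88 RPKM and a log2 fold change of -0.07, then IKZF4 with 1.60 RPKM and -0.14, and IKZF2, the gene of Helios, with 0.172 RPKM and 0.27 in the authors' deposited table. No spread between libraries is known for these levels, so neighbours in the order cannot be told apart beyond their means.

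Other proteins that cereblon takes up as substrates or clients were centred on 0. Of 15 such genes, 13 had at least 1 RPKM. Of these 7 were below 0 and 6 above, with a median of -0.04. Of the 13, 0 were 1.5-fold from 1 (4.95% of all genes in each direction). The zinc finger genes ZNF653, ZNF692 and ZNF276 stood at 0.40, 0.36 and 0.28 in the authors' deposited table, and MEIS2, a homeobox gene, at -0.38. SALL4 and ZBTB16, the genes without 1 RPKM, had 0.0112 and 0.00713 RPKM in the authors' deposited table.

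IRF4 was the most abundant gene of the circuit and, with CRBN, its lowest by fold change. IRF4 (chromosome 6, 391739 to 411447, plus strand; 9 exons) had 174 RPKM in the authors' deposited table, more than 98.0% of the 11324 genes. It was 1.59-fold lower there, with a log2 fold change of -0.67, an implied SE of 1.03 and an interval from -2.68 to 1.34, which is 0.156 to 2.54 times the level in DMSO. Its unadjusted p of 0.515 was among the smaller ones of this comparison, with 3.79% of genes having a smaller p and 3.49% a lower fold change. Among the 8 IRF genes described it was the highest by RPKM, at 5.30 times the next, IRF3.

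The other IRF genes lay closer to 0. IRF3 and IRF5, which act in the response to virus, had log2 fold changes of 0.09 and 0.33 in the authors' deposited table. IRF7, the driver of type I interferon, was at -0.47, IRF2 at -0.37, IRF9 at -0.23 and IRF1 at -0.16 in the authors' deposited table. IRF8, a close relative of IRF4 in B cells, had 0.800 RPKM, under the minimum. Of the 6 others that passed it, 4 were below 0 and 2 above, with a median of -0.20. Of these 6, 0 were 1.5-fold from 1 (4.95% of all genes in each direction).

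**Figure D3:**
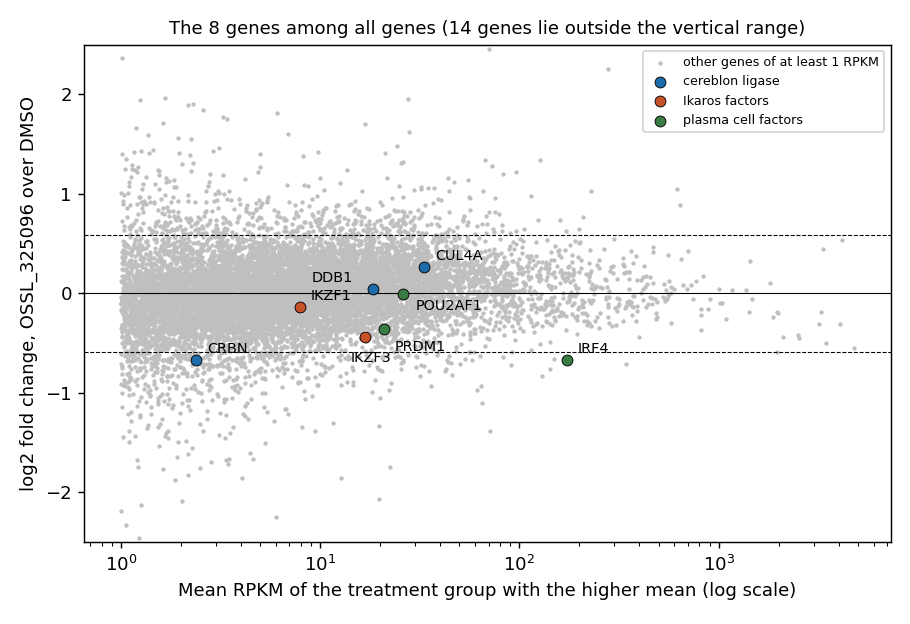
Log2 fold change (vertical axis) against the mean RPKM of the treatment with the higher mean (horizontal axis, log scale) for the 11324 genes of at least 1 RPKM, with the 8 genes coloured by role; dashed lines are 1.5-fold, and 14 genes lie outside the vertical range. IRF4 and CRBN lie just past the lower line at 174 and 2.38 RPKM, and the other 6 genes lie between the lines.

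PRDM1 and POU2AF1 had values nearer 0 than IRF4, by less than the error of any of the 3, and the differences were not tested. PRDM1 (chromosome 6, 106534195 to 106557814, plus strand; 7 exons) had 20.9 RPKM and in the authors' deposited table stood at 1.28-fold lower, with a log2 fold change of -0.36, an implied SE of 0.92 and an interval from -2.16 to 1.44 (unadjusted p = 0.693). POU2AF1 (chromosome 11, 111222977 to 111326355, minus strand; 5 exons) had 26.0 RPKM and a log2 fold change of -0.01 there, with an implied SE of 1.09 and an interval from -2.13 to 2.12. Its value lay in the middle of all genes, 48.0% of which were lower. The partners of OCA-B were at -0.10 for POU2F1, the gene of OCT1 (4.50 RPKM), and -0.28 for POU2F2, the gene of OCT2 (0.426 RPKM), in the authors' deposited table.

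Of 14 further transcription factor genes of plasma cells and B cells, 10 had at least 1 RPKM, 6 of them below 0 and 4 above, with a median of -0.06. Of the 10, 2 were at least 1.5-fold higher, where 4.95% of all genes were. They were BATF, which pairs with IRF4 on composite DNA elements, at 1.08, and MEF2B at 1.05 in the authors' deposited table. Their implied SEs of 1.68 and 1.79 were larger than their fold changes, and their levels were 8.65 and 1.27 RPKM. MEF2B shares its locus with a readthrough transcript, so its value is uncertain. The minimum was applied to the mean of the higher group, for all genes alike. At 1.27 RPKM and 2.08-fold higher, MEF2B passed it only through OSSL_325096, the group where it was high. Its place in the count rests on that. KLF2, a factor of the Krüppel family, was at -0.51, TCF3, the E protein gene, at 0.49 and XBP1, the driver of the secretory programme, at -0.02 in the authors' deposited table. Among the 15 factors of at least 1 RPKM in this list and the circuit, IRF4 had the lowest fold change.

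**Figure D4:**
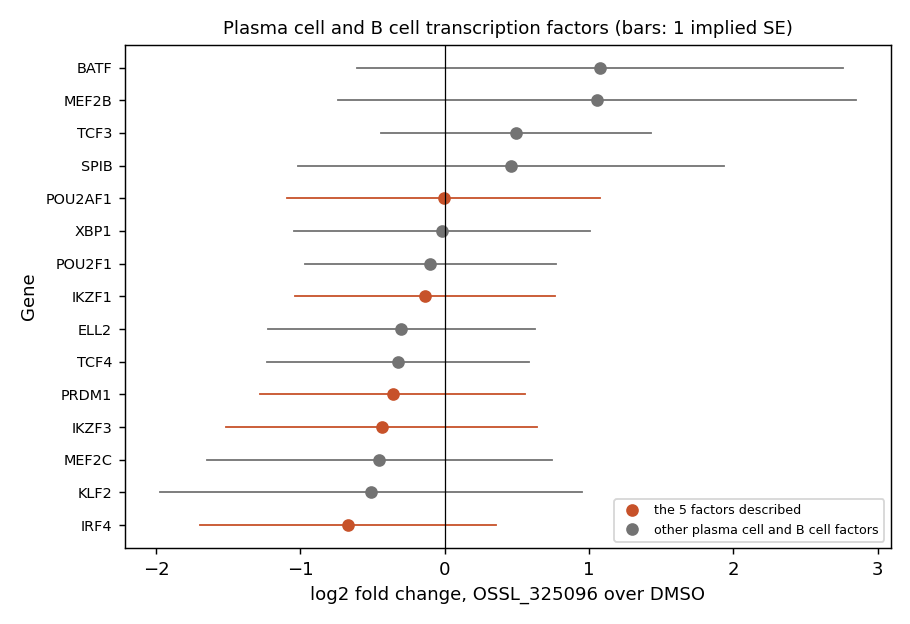
Fold change on the log2 scale, OSSL_325096 over DMSO (horizontal axis), for the 15 plasma cell and B cell factors of at least 1 RPKM (vertical axis), with bars of 1 implied SE; orange marks genes of the circuit. IRF4 (-0.67) is the lowest and BATF (1.08) the highest, and every bar reaches across 0.

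Genes downstream of the circuit lay on both sides of 0. Of 6 genes that IRF4 is known to activate in myeloma, 3 were below 0 and 3 above, with a median of 0.01. STAG2, a cohesin subunit gene, was at -0.58, SUB1, a transcription coactivator gene, at -0.49 and the cell cycle kinase gene CDK6 at -0.30 in the authors' deposited table. SQLE, an enzyme of sterol synthesis, was at 0.70, SCD, the stearoyl-CoA desaturase gene, at 0.37 and MYC at 0.31 there. SQLE was the only one of the 6 that was 1.5-fold from 1 (4.95% of all genes in each direction).

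B cell genes that Blimp-1 and the plasma cell state keep silent were mostly low. Of 11 such genes, 4 had at least 1 RPKM and MS4A1 was listed at 0. CD79A, a subunit of the B cell receptor, had 18.3 RPKM and a value of 0.04 in the authors' deposited table. CIITA, the activator of HLA class II genes, was at 0.26, CR2, the complement receptor gene, at -0.46 and BACH2, a repressor of PRDM1 in B cells, at -0.69 there. BACH2 (3.94 RPKM) was the only one of the 4 that was 1.5-fold from 1 (4.95% of all genes in each direction).

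Interferon-stimulated genes, which Ikaros and Aiolos restrain in lymphoid tumour cells, were mostly under the minimum. Only 3 of 12 had at least 1 RPKM, all 3 above 0, with a median of 0.36. IFI6 was at 0.54, IFITM1 at 0.36 and ISG15 at 0.31 in the authors' deposited table. Of these 3, 0 were 1.5-fold from 1 (4.95% of all genes in each direction). Over all these lists the smallest unadjusted p of a gene of at least 1 RPKM was 0.443, for DDB2.

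Genes beside the circuit on the chromosome lay on both sides of 0. Within 250 kb of the 8 genes lay 34 other genes of at least 1 RPKM, 13 below 0 and 21 above, with a median of 0.07. Of the 34, 1 was at least 1.5-fold lower and 2 higher, where 4.95% of all genes were in each direction. The neighbours of IRF4, DUSP22 and EXOC2, stood at -0.21 and -0.12 in the authors' deposited table, while that of PRDM1, ATG5, at -0.07. Around IKZF3 the 11 neighbours ran from -0.39 to 0.40. FIGNL1, 39.0 kb beyond IKZF1, was at -0.84 in the authors' deposited table, lower than IKZF1 itself. MCF2L, 108.5 kb from CUL4A, was at 1.23, and CD5, 171.6 kb from DDB1, at 0.72 in the authors' deposited table. MCF2L had 1.56 RPKM in the group with the higher mean. By its fold change it passed the minimum only through OSSL_325096, where it was high, and its place in the count of higher neighbours rests on that.

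Some of the genes overlap others. CRBN shares 1888 bases at its end with TRNT1, the gene of the enzyme that adds CCA to transfer RNAs, on the opposite strand. TRNT1, at 2.36 RPKM about as abundant as CRBN, was listed at 0.07 on the log2 scale in the authors' deposited table. DDB1 shares 9387 bases with DAK on the opposite strand (10.4 RPKM, log2 fold change 0.20), and CUL4A 478 bases with PCID2 (13.2 RPKM, -0.04) in the authors' deposited table. The stretches shared with DAK and PCID2 lie outside the canonical transcripts of DDB1 and CUL4A. Whether the counting used strand is not stated in the labels, so reads counted in any shared stretch may belong to either gene.

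GC content, length and expression of transcripts took up 15.8% of the variance of the fold changes over all genes, and CRBN stands near an end of the GC range. Its transcripts had a median GC content of 38.2%, below which lay 4.54% of the 11104 genes with a value, while those of IRF4 had 58.0% (75.2% of genes lower). The trend with GC content, length and expression over all genes came to -0.25 at CRBN and 0.16 at IRF4. Its lengths were medians over all annotated transcripts, 945 bases for CRBN and 850.5 for IRF4. Their canonical transcripts have 2187 and 5314 exonic bases, and a trend with canonical lengths was not fitted. With it removed, CRBN was at -0.43 and no longer 1.5-fold lower, and IRF4 was at -0.83, with 1.61% of genes lower. IKZF3 was at -0.43, PRDM1 at -0.32, IKZF1 at -0.19, POU2AF1 at -0.05, DDB1 at -0.04 and CUL4A at 0.34 after removal. DDB1 thereby changed sign, by far less than its implied SE. The median of the 8 was -0.25 before and after.

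**Figure D5:**
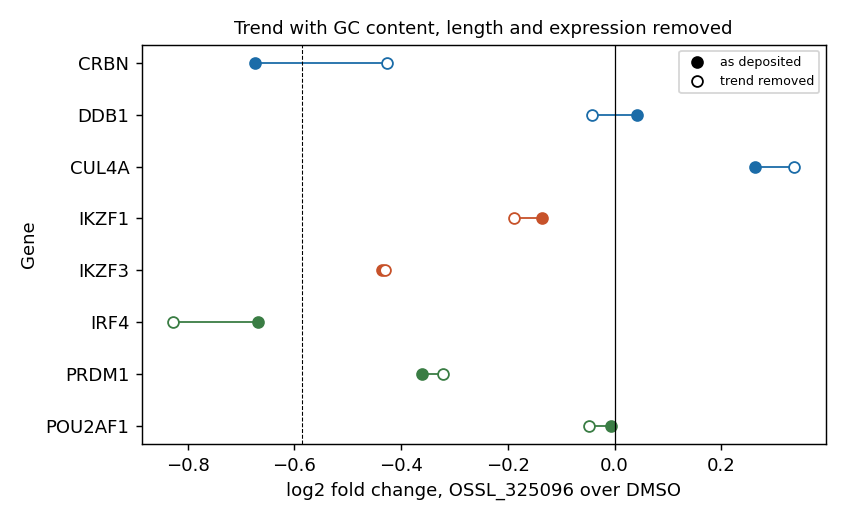
Fold change on the log2 scale, OSSL_325096 over DMSO (horizontal axis), for the 8 genes (vertical axis), as deposited (filled) and after the GC, length and expression trend was removed (open); the dashed line is 1.5-fold lower. CRBN goes from -0.67 to -0.43 and IRF4 from -0.67 to -0.83, and the other 6 genes move by less than either.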

How the data were processed

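Per the labels' protocols, libraries were made from RNA bound to oligo(dT) beads and copied from random primers. The reads were mapped to hg19 and compared in Biomedical Genomics Workbench 5 as RPKM, per the series' design text; counting rule, strand setting, annotation, scaling and model are not named in it. The authors deposited 1 table with 6 columns of values and 0 columns of single libraries. Its RPKM values are, per the file headers, the larger of both groups' means. The log2 fold change and its signed linear fold, a score that is minus the reciprocal below 1, were deposited by the authors. The p-values, unadjusted and adjusted, were also deposited by the authors.

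The planned limma fit needs single libraries, so the deposited comparison took its place. Genes of at least 1 RPKM were kept. Over these, p-values were adjusted again by Benjamini-Hochberg, an implied SE was taken from each p-value, and 95% intervals from that SE. For GC content and length, the median of each gene's GENCODE 44 transcripts was used (98.1% of genes kept). Their trend, with expression, was removed by a regression of degree 3, which took up 15.8% of the variance. Whether the deposited test used the normal distribution, on which the implied SEs and intervals rest, was not tested. The read value was found after the data were examined, from RPKM times gene span at the 4 most frequent pairs of fold change and p-value, within a tolerance of 0.05, in 248 genes of the 2836 with these pairs. Of the genes with the pairs of next size, 12 of 214 and 8 of 228 fell on the sum of both steps of a group, so the read value remains an assumption. Counting errors treat reads as independent molecules.

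The members and the 9 gene lists were chosen with earlier results of these data known. From each list up to 4 genes of at least 1 RPKM with the largest fold change were named, the IRF and Ikaros genes, and neighbours within 250 kb; other list genes that are named (CDK6, MYC, SALL4, ZBTB16, XBP1, POU2F1, POU2F2, DCAF10, DCAF17, ERCC8, MS4A1, PAX5, CD22, IFI44L, ID3), the cell type markers named and the choice among neighbours were made after their values were seen. DCAF8 was not matched, and 3 genes of the lists are not reported here. Python 3.11.15 with pandas 2.3.3, numpy 2.4.6, scipy 1.17.1 and matplotlib 3.10.9 was used.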

Additional observations from a re-analysis of the deposited data

How the results depend on the processing

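The count of 2 genes at least 1.5-fold lower was 4 at the lower threshold (log2 -0.32), 0 at 2-fold, 1 with a minimum of 5 RPKM, which leaves out CRBN, and 1 after the GC, length and expression trend was taken out, which left IRF4. With no minimum and with centring on the median of all genes it was 2. Shares over all genes were not computed with the 5 RPKM minimum, with no minimum, after centring or after trend removal. Those counts therefore have no background beside them. The log2 fold change of DDB1 reversed to -0.042 with the trend removed; the other 7 genes kept their direction under centring and trend removal. The count of genes at least 1.5-fold higher was 0 under each of these settings, and the median of the 8 genes stayed below 0, from -0.26 to -0.14. By the deposited false discovery rate, the Bonferroni value and the Benjamini-Hochberg adjustment with no minimum, 0 genes were under 0.05. With the t quantile of 2 degrees of freedom the implied SEs were smaller, 1.10 for CRBN and 0.85 for IRF4. Intervals from that t distribution would be wider all the same, and the fold needed for p of 0.05 larger. Neither was computed.

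No paired analysis was possible because the table holds no values of single libraries, so a fit with the cell line as a block and fits without each library were not run. Which spread the deposited p-values rest on is not known, since the model is not named and the 2 libraries of each treatment are of different lines. The implied SEs and intervals are those of the deposited test, and the error of the change within a line was not estimated. For these 8 genes, if a step is 1 read, the counting error was at most 0.21 on the log2 scale, against implied SEs of 0.90 to 1.29.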

Other observations

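Some low genes of the circuit's lists carried the same numbers after rounding. PAX5 and IFI44L each had a log2 fold change of 2.33 and an unadjusted p of 0.462 in the authors' deposited table, at 0.00498 and 0.00365 RPKM. CD22 and SALL4 each had -2.31 and 0.463 there. Unrounded, CD22 and SALL4 held the same pair of fold change and p-value, while PAX5 and IFI44L held different ones, with log2 fold changes of 2.3338 and 2.3336. The 4 most frequent pairs of fold change and p-value were held by 2836 genes, 12.3% of the 23130 with a fold change, at up to 0.250 RPKM, and are those taken above as 1 read in 1 library. Of these 2836 genes, 248 were at a step, so this reading is an assumption for the others. ID3, a target of E proteins and a brake on them, was under the minimum at 0.572 RPKM with a log2 fold change of 1.83, and its implied SE of 1.84 was as large.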
